A study of Mus musculus with 12 samples.

Results

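MMT cells are a line derived from a mouse mammary gland tumour, and the values described here are the gene expression of that line before any siRNA was introduced. The untransfected cells were the samples whose titles name MMT cells without an siRNA, which gave 2 of the 12 arrays of the study. The other 10 arrays held the same line after an siRNA had been transfected: 3 with the control (siCtrl), 3 with the one aimed at Erm (siErm) and 4 with the one aimed at Pea3 (siPea3). Etv5 is the current symbol of Erm and Etv4 that of Pea3, a pair of ETS family transcription factors. All cells were grown in flasks in DMEM with 10% fetal calf serum, gentamycin and non-essential amino acids, and the labels give no strain, passage, clone or transfection reagent. The treatment field of the untransfected samples also reads transfection, as it does for every sample, so the groups rest on the titles. The labels do not say whether arrays of a group came from separate cultures, so each test measures the spread between these arrays, which may be technical. RNA of whole cultures was measured, in which fewer cells of a type and less RNA per cell cannot be told apart.

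The arrays were of a single-colour Applied Biosystems type, and a gene's value is an assay normalized signal, a brightness on a linear scale. A probe was called detected where its noise was at most 1/3 of its signal and its status code did not mark a failed measurement. Detection covered 13836 (41.9%) of 33012 probes on untransfected array 1 and 13101 (39.7%) on array 2, against 34.2 to 41.8% on the transfected arrays. The mean share was 40.8% in untransfected and 39.7% in transfected cells, a difference of 1.14 percentage points that an exact 2-sided permutation test over the arrays did not separate (p = 0.439, smallest possible p 0.0152). Both untransfected arrays detected 11694 probes (35.4%), 7175 of which carry 1 gene symbol, and these stand for 6941 genes (50.2% of the 13840 genes with a probe). Array 1 alone detected 2142 probes and array 2 alone 1407. Log2 signals of the 2 untransfected arrays correlated at r = 0.948 over 16364 probes, which are not independent replicates, while replicate arrays of a transfected group correlated at 0.939 to 0.973. The siPea3 array 2 stood apart, with the lowest detected share, and without it the comparison with transfected cells described below had 546 calls in place of 447. Signals of different probes also depend on the probe, so a rank by signal orders probes by brightness and not transcripts by number.

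Mammary epithelium is built from luminal cells, which carry keratins 8 and 18 and seal to each other through E-cadherin and EpCAM, and basal cells, which carry keratins 5 and 14 and contractile proteins. Tumour cells can lose these junctions and take on proteins typical of mesenchyme, such as vimentin and fibronectin, a change driven in part by the Snail, Zeb and Twist repressors. Such cells often secrete matrix, proteases, chemokines and cytokines, and read signals through receptor kinases. The lists below follow that order: lineage, matrix, secreted signals and receptors.

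The brightest named gene of untransfected MMT cells was Vim, the intermediate filament protein of mesenchymal cells. Its signal was 6210 and 8068 on the 2 untransfected arrays, against 3018 to 6584 with a median of 4773 on the 10 transfected arrays. The ranges overlapped, and the difference of 0.57 ± 0.24 (log2, SE) did not pass the test described below (limma adjusted p = 0.253). Among the 30 brightest named genes, 16 encoded ribosomal proteins, led by Rpl13a (7628 and 5572), Rps12 (5072 and 8127) and Rpl26 (6242 and 6659). The translation factor Eef1a1 gave 6283 and 6568. Odc1, the first enzyme of polyamine synthesis, gave 4973 and 5818, both above the 2448 to 4653 of transfected cells. B2m, the light chain of MHC class I, gave 3996 and 5726. The mitotic ubiquitin enzyme Ube2c (3813 and 4599), the interferon-inducible membrane protein Ifitm3 (3886 and 4060), the ferritin light chain Ftl1 (3382 and 4342), the actin-binding Tmsb10 (3557 and 3932) and the calcium-binding S100a6 (3131 and 3875) were in the same set. Ppia, Gapdh, Mtrr, Fbxo22 and Cnbp completed it with the remaining ribosomal protein genes. These 30 genes cover only part of the brightest signals, because 65 of the 100 brightest probes lack a single symbol.

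Keratins 8 and 18 were detected among luminal markers, while E-cadherin and EpCAM were not. Of 19 luminal genes with a probe, 7 were detected on both untransfected arrays, 2 on 1 array and 10 on neither, against 50.2% detected on both over all genes. Krt8 gave 1173 and 1468, against 300 to 985 with a median of 619 in transfected cells. Krt18, its partner in luminal filaments, gave 501 and 312, against 55.7 to 179 with a median of 96.1. Neither keratin overlapped with the transfected range, though only Krt18 was called in the comparison described below. The cell surface glycoprotein Cd24a gave 964 and 960, the luminal transcription factor Gata3 gave 76.9 and 102, and the tight junction claudins Cldn4 and Cldn3 gave 54.8 and 49.0 for Cldn4 and 8.33 and 11.6 for Cldn3. Krt19 was dimmer at 10.2 and 23.3.

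E-cadherin (Cdh1) gave 0.41 and 0.50 and EpCAM (Epcam) 0.26 and 0.58, and neither was detected on any of the 12 arrays. The tight junction gene Cldn7 (0.68 and 0.34), the epithelial transcription factors Ovol1 (0.36 and 0.55) and Grhl2 (0.60 and 0.82), the mucin Muc1 (0.46 and 0.36), the receptor Kit (0.58 and 0.42) and the keratin Krt7 (0.77 and 0.46) were also not detected in untransfected cells. Undetected signals say only that the probe did not rise above its noise, since 95% of undetected probes lay under 2.42 on array 1 and 2.54 on array 2. Esrp1, a splicing factor of epithelia, was detected on array 1 alone (6.19 against 0.60 on array 2). The plot of lineage markers by array shows both lists beside the range of transfected cells.

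**Figure D1:**
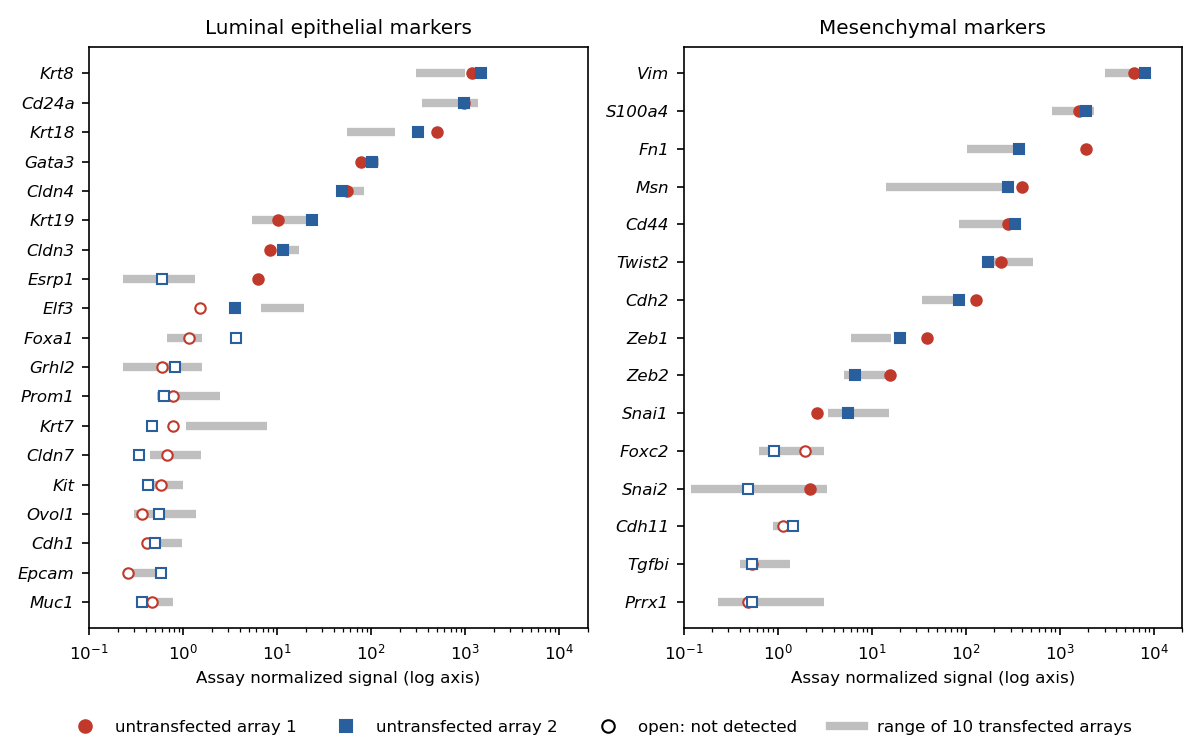
Signal (log axis) of every luminal epithelial marker (left) and mesenchymal marker (right) with a probe. Red circles are untransfected array 1, blue squares untransfected array 2, open symbols are not detected, and grey bars span the 10 transfected arrays. Krt8, Cd24a and Krt18 sit at 312 to 1468 while Cdh1 and Epcam stay at or under 0.58, and Vim has the highest signals (6210 and 8068).

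The start of Epcam is shown because Snail and Zeb repressors are known to bind the E-box, here searched as CACCTG on both strands. The 250 bases before the Epcam start (RefSeq, GRCm38.p6, chr17:87635729-87635978, plus strand) hold it at 187 and at 19 bases before the start, the second on the minus strand. Capitals mark the matches.

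Epcam: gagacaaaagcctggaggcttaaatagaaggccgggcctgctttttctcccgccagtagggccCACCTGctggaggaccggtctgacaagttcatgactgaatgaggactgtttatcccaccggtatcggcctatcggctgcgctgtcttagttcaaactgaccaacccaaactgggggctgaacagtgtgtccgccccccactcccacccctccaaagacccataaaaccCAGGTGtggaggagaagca

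Of 32851 windows of that length, 17.2% hold the same letters, so a match is common and describes only the sequence.

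Of 15 mesenchymal markers with a probe, 10 were detected on both untransfected arrays, 1 on 1 array and 4 on neither. S100a4, a calcium-binding protein of motile cells, gave 1606 and 1892. Fibronectin (Fn1) gave 1907 and 373, so it was the member with the widest gap between the 2 arrays, and both values lay above the 104 to 326 of transfected cells (difference 1.94 ± 0.56, limma adjusted p = 0.101). Moesin (Msn, 402 and 279), the hyaluronan receptor Cd44 (285 and 337) and the transcription factor Twist2 (239 and 174) followed. N-cadherin (Cdh2) gave 128 and 85.8 on the probe used and 162 and 96.9 on its other probe. The repressors Zeb1 (39.2 and 19.9), Zeb2 (15.8 and 6.65) and Snai1 (2.63 and 5.64) were detected on both arrays, and Snai2 on array 1 alone (2.20 and 0.49). Foxc2, Cdh11, Tgfbi and Prrx1 were not detected. No member passed the test of untransfected against transfected cells on the deposited signals, though 2 did after quantile normalization, described below.

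Basal and myoepithelial genes were sparse, with 5 of 15 detected on both arrays. The integrin Itga6 gave 39.9 and 19.4, Krt14 gave 13.7 and 13.0, Krt17 gave 12.9 and 4.92, and the hemidesmosome genes Itgb4 and Col17a1 lay at or under 5.43. Krt5 (1.38 and 0.93), the basal transcription factor Trp63 (0.45 and 0.60), smooth muscle myosin Myh11 (0.35 and 1.25), Tagln, Cnn1, Mme, Dsg3 and Lamb3 were not detected. Acta2, smooth muscle actin, was not detected on array 1 (0.42) and its measurement failed on array 2.

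Most milk genes were not detected. Caseins Csn1s1 (0.69 and 0.77), Csn1s2a (0.40 and 0.48), Csn1s2b (0.34 and 0.47) and Csn2 (5.61 and 6.63) and the lactose synthesis gene Lalba (0.66 and 0.55) were not detected, as were Btn1a1, Ltf, Muc15 and Cel. The exception among caseins was Csn3, at 59.2 and 10.5 against 1.77 to 9.36 in transfected cells (difference 2.37 ± 0.57, limma adjusted p = 0.0556). Plin2, which coats lipid droplets, gave 1237 and 190. The prolactin-signal factors Stat5a (5.20 and 9.81) and Stat5b (12.9 and 14.9) and the fat globule enzyme Xdh (23.3 and 7.01) were the other detected members, 5 of 15 in all.

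Fibroblast genes were mixed, with 8 of 15 detected on both arrays. Decorin (Dcn), a small matrix proteoglycan, gave 1910 and 868. The platelet-derived growth factor receptors Pdgfrb (23.2 and 10.3) and Pdgfra (19.7 and 10.6), Fbln1 (21.7 and 7.34) and Pdpn (10.5 and 4.67) were dim. The fibrillar collagens Col1a1 (3.66 and 2.19) and Col3a1 (3.87 and 3.39) were near the limit of detection, Col1a2 was detected on array 1 alone, and Thy1, Fap, Postn, Lum, Dpt and Tcf21 were not detected on either. The 8 of 15 detected were 53.3% of the list, close to the 50.2% over all genes. Signals for Krt8, Krt18 and Vim thus came from arrays on which E-cadherin was not detected and fibroblast genes were detected in part.

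Few markers of other cell types were detected on both arrays. Lists for B cells (0 of 6), erythroid cells (0 of 4) and skeletal muscle (0 of 8) had no such member, and 2, 2 and 1 of their members were detected on 1 array. One member each was detected on both arrays for adipocytes (Plin1, 3.75 and 2.98, of 7), granulocytes (1 of 8), neural cells (1 of 7), hepatocytes (Cyp7a1, 1.89 and 1.37, of 7) and pluripotent cells (1 of 5). Some of those single members were bright. Csf3r, the receptor for granulocyte colony-stimulating factor, gave 261 and 242, while S100a8, Camp, Elane and Cpa3 of the same list were detected on 1 array and S100a9, Mpo and Ngp on neither. Tubb3, a tubulin of neurons and many tumour cells, gave 247 and 394, while Snap25, Nefl, Stmn2, Syp and Mbp were not detected. Sox2, a pluripotency factor, gave 41.6 and 52.3 while Pou5f1, Lin28a, Zfp42 and Tdgf1 were not detected. Macrophage genes had 3 of 12 (Cd14 at 51.5 and 32.3, Mrc1, Lyz2), with Ptprc, Itgam, Adgre1 and Spi1 not detected. T and NK cell genes had 2 of 10 (Cd2 at 20.5 and 14.4, Nkg7), with Cd3d, Cd3e and Cd3g not detected. Endothelial genes had 3 of 13 (Plvap at 29.6 and 11.96, Eng, Sele), with Pecam1, Kdr and Vwf not detected. The 3 Y-linked genes with a probe were not detected.

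**Figure D2:**
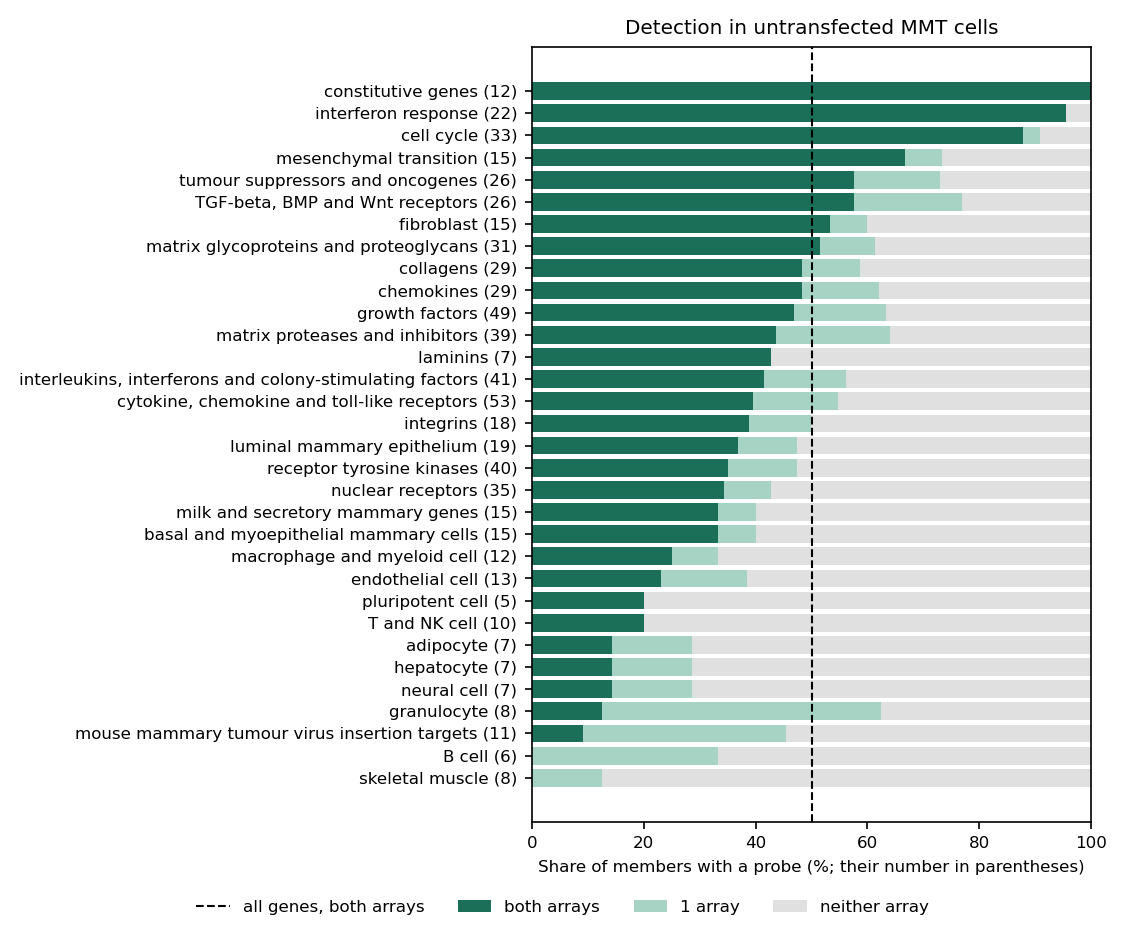
Share of each list's members with a probe (number in parentheses) that was detected on both untransfected arrays (dark green), on 1 (light green) or on neither (grey). The dashed line marks 50.2%, the share of all genes detected on both. Constitutive genes (100%), interferon response genes (95.5%) and cell cycle genes (87.9%) lie to the right of it, and immune, muscle and milk gene lists to the left.

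Adhesive glycoproteins had the brightest probes among matrix genes. Matrix glycoproteins and proteoglycans had 16 of 31 members detected on both arrays (51.6%), collagens 14 of 29 (48.3%) and laminins 3 of 7 (42.9%). The share over all genes was 50.2%. Tenascin C (Tnc), a glycoprotein of wounds and tumour stroma, gave 3257 and 1157, against 144 to 775 with a median of 367 in transfected cells. The proteoglycan Gpc1 gave 2040 and 1577, Fbln2 gave 683 and 401, and Sparc 228 and 308. The collagens with the highest signal were Col5a1 (321 and 214), Col18a1 (294 and 193), Col4a1 (165 and 182) and Col16a1 (123 and 179), followed by Col4a2 and Col6a1. The laminin chain Lamb1 gave 698 and 314, Lamb2 48.5 and 42.5, and Lama4 4.94 and 4.67. Vcan, Eln, Vtn, Nid2, Gpc3 and Postn were among the glycoproteins not detected.

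Cells bind this matrix through integrins, of which 7 of 18 were detected (38.9%, against 50.2% over all genes). Itgb1, the beta chain shared by most of them, gave 1022 and 753, Itga7 gave 118 and 144, and Itga6, Itgb7, Itga3 and Itgb5 lay at or under 42.6. Matrix proteases and inhibitors had 17 of 39 members detected (43.6%). Cathepsin L (Ctsl) gave 3184 and 1885, and the membrane-type metalloproteinase Mmp14 gave 1716 and 1284, against 629 to 1418 in transfected cells. The gelatinase Mmp9 gave 554 and 398, both above the 49.5 to 305 of transfected cells, but the difference of 1.82 ± 0.54 did not pass (limma adjusted p = 0.109). The stromelysin Mmp3 (305 and 229) and the inhibitor Timp2 (273 and 189) were also detected, while the gelatinase Mmp2 (0.72 and 0.33) was not detected on any array.

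Untransfected cells had signal for part of the secreted inflammatory genes. Chemokines had 14 of 29 members detected on both arrays (48.3%), close to the 50.2% over all genes. The neutrophil attractant Cxcl1 gave 2180 and 1306, and the monocyte attractant Ccl2 gave 1764 and 494. The interferon-inducible Cxcl10 and Cxcl11 gave 431 and 397 for Cxcl10 and 203 and 236 for Cxcl11. Ccl5 gave 229 and 159, and Ccl7 gave 246 and 47.4. Cxcl12, Ccl11, Ccl19, Ccl21a, Ccl22 and Cxcl13 were not detected.

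Interleukins, interferons and colony-stimulating factors had 17 of 41 members detected (41.5%, against 50.2% over all genes). Macrophage migration inhibitory factor (Mif) gave 1192 and 1565. Il11, a cytokine that signals through gp130, gave 1796 and 692, against 178 to 552 in transfected cells. Tslp, a cytokine of epithelia, gave 1375 and 186, against 123 to 426 in transfected cells, so only array 1 lay outside that range. Csf3, the ligand of Csf3r, gave 838 and 709, so ligand and receptor were both detected on both arrays. Il33 gave 595 and 329, and Il24 gave 127 and 50.7. Tnf (1.02 and 0.97), Il1b (0.53 and 0.58), Il4, Il13, Il17a and Il3 were not detected. Csf3r apart, Il6st, which encodes gp130, gave 128 and 112 on the probe used. Its other probe (0.47 and 0.86) was not detected on any array. Il6ra was not detected (2.22 and 1.35).

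Growth factors had 23 of 49 members detected (46.9%, against 50.2% over all genes). Pdgfa, a ligand of the platelet-derived growth factor receptors, gave 4092 and 1205, and its receptor Pdgfra was dim as given above. The activin subunit Inhba gave 260 and 404, the EGF family ligand Hbegf 270 and 37.9, Pgf 46.0 and 145, and Vegfa 164 and 130 on the probe used and 35.3 and 28.8 on its other probe. Fgf21 gave 338 and 5.89. The EGF receptor ligand Tgfa was not detected.

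Receptor tyrosine kinases had 14 of 40 members detected (35.0%, against 50.2% over all genes). Axl, the Gas6 receptor found in many mesenchymal tumour lines, gave 1385 and 1073, against 757 to 1638 in transfected cells. Epha2 gave 311 and 127, Ryk 150 and 152, Fgfr1 99.0 and 71.9, Ddr2 124 and 42.4, and Ptk7 77.0 and 70.2. Erbb2 was detected at 11.8 and 13.8 (a dim member named after its value was seen), whereas Egfr, Fgfr3, Ret, Flt3, Kdr and Mertk were not detected, Egfr reading 3.86 and 3.82. Cytokine, chemokine and toll-like receptors had 21 of 53 members detected (39.6%). The brightest were the TWEAK receptor Tnfrsf12a (1371 and 556), Csf3r and the TNF receptor Tnfrsf1a (252 and 172). The type I interferon receptor chain Ifnar2 gave 50.2 and 51.0, and Ackr3 gave 62.1 and 62.5. TGF-beta, BMP and Wnt receptors had 15 of 26 (57.7%), with Tgfbr1 at 98.6 and 51.2, Acvr1 at 88.2 and 33.4 and Fzd7 at 31.3 and 49.4.

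Nuclear receptors had 12 of 35 members detected, with Nr4a3 (76.4 and 58.4), Rxrb (48.3 and 22.3) and Nr2f2 (25.7 and 34.1) at the top. The progesterone receptor Pgr (0.74 and 1.35) and the second estrogen receptor Esr2 (1.15 and 1.34) were not detected. Targets that the mouse mammary tumour virus is known to activate by insertion were near background: 1 of 11 was detected on both arrays, Wnt10b at 2.63 and 5.93, and Wnt1, Fgf8, Fgf10, Rspo2, Rspo3 and Notch1 were not detected.

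Genes of dividing cells were present: 29 of 33 cell cycle genes were detected on both arrays. Beside Ube2c, cyclin D1 (Ccnd1) gave 1128 and 586, the replication clamp Pcna 793 and 782, Cdk4 636 and 490, Mcm5 270 and 477 and survivin (Birc5) 229 and 418. Among tumour suppressors and oncogenes, 15 of 26 were detected. Myc gave 983 and 223, Jun 745 and 320, the p53 target Cdkn1a 260 and 263, and Bcl2l1 246 and 144. The siRNA targets were dimmer, with Etv4 at 40.7 and 41.8, detected on both arrays, and Etv5 at 23.7 on array 1 and 1.05, not detected, on array 2. All 12 constitutive genes with a probe were detected, as were 21 of 22 interferon response genes, including the antiviral membrane protein Bst2 (1066 and 2075), Isg15 (1117 and 1512), Gbp3 (552 and 860) and Usp18 (456 and 370). Most of this list was therefore above noise before transfection.

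Of the 11694 probes detected on both, 2203 (18.8%) differed by over 2-fold, 1663 higher on array 1 and 540 higher on array 2. After quantile normalization, which forces the same spread of signals on both arrays, the split was 979 and 899 of 1878 probes. The 12 pairs of replicate transfected arrays had 1.91 to 17.7% of probes over 2-fold apart, with a median of 8.64%. Ratios between 2 arrays carry no test, and the values below describe these arrays, whose gap may be technical.

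Genes much brighter on array 1 included several known targets of ATF4, a transcription factor whose translation increases when amino acids run short or the endoplasmic reticulum is stressed. Fgf21, a secreted metabolic hormone, gave 338 on array 1 and 5.89 on array 2, against 1.07 to 4.15 in transfected cells. Cth, which makes cysteine from cystathionine, gave 183 and 5.90, against 6.07 to 14.8. Atf3, a stress-induced transcription factor, gave 453 and 22.7, against 260 to 438, so array 1 lay just above the transfected range and array 2 far below it. The growth arrest gene Gadd45a gave 2108 and 44.6, against 142 to 441, with each untransfected array outside that range on its own side. Carbonic anhydrase Car6 (327 and 4.33), Nrcam (74.6 and 2.16), Tnfaip6 (126 and 3.79), the drug exporter Abcb1a (102 and 4.07), the stress kinase Plk3 (169 and 12.3) and Sdcbp2 (161 and 11.96) were the others among the 10 largest ratios.

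A list of ATF4 and amino acid response genes, chosen after these ratios were seen and therefore a description only, had 24 members with a probe and 21 detected on both arrays. Of these, 20 were brighter on array 1, 18 by over 2-fold, with a median log2 ratio of 1.93 against 0.24 over all probes detected on both. The glutathione-degrading enzyme Chac1 gave 1070 and 113, against a transfected median of 119. Asparagine synthetase (Asns) gave 645 and 107, against 128. The one-carbon enzymes Shmt2 (485 and 112, against 107) and Mthfd2 (555 and 115, against 110), the amino acid carrier Slc7a5 (329 and 42.7, against 41.7) and Pck2 (477 and 125, against 75.4) had the same shape. Atf4 itself gave 1201 and 496, against 560. Array 1 exceeded every transfected array for 17 of the 21 genes. Cbs (1.91 and 2.67, against 6.46 to 32.1 in transfected cells) was the member brighter on array 2. It was also the only member called in the comparison described below, lower in untransfected cells (-2.58 ± 0.29, limma adjusted p = 0.00103).

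The start of Fgf21 is shown because its 250 bases (RefSeq, GRCm38.p6, chr7:45615491-45615740, minus strand) hold a known kind of ATF4 site, searched as TGATGNAA on both strands and found on the reverse strand 139 bases before the start (capitals).

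Fgf21: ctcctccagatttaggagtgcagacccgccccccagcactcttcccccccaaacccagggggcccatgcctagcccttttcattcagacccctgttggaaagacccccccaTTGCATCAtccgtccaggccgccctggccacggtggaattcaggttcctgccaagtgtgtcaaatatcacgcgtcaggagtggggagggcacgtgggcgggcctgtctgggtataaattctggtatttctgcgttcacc

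The same letters occur in 3.45% of all windows.

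Array 2 was the brighter one for genes of cholesterol synthesis and of the response to low oxygen. Idi1, an isomerase of isoprenoid synthesis, gave 14.3 on array 1 and 258 on array 2, against 32.8 to 209 in transfected cells. Hmgcs1, which makes the precursor of mevalonate, gave 83.0 and 792, against 72.4 to 403. Insig1, which holds the sterol sensor in the endoplasmic reticulum, gave 20.8 and 213, against 38.4 to 165. The mevalonate enzyme Mvd gave 4.65 and 41.3, and the fatty acid desaturase Scd2 gave 347 and 2559. For Idi1, Insig1 and Mvd, array 1 fell below every transfected array and array 2 above every one. Bnip3 (101 and 965), Car9 (16.8 and 148) and Stc1 (22.7 and 150), all known to be induced in hypoxia, and Prnd (1.86 and 15.8) and Dixdc1 (11.9 and 96.5) completed the 10 lowest ratios.

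A cholesterol synthesis list, also chosen after the ratios were seen, had 14 members with a probe. All 14 were detected on both arrays and brighter on array 2, 13 by over 2-fold, with a median log2 ratio of -2.07. The transfected median lay between the 2 untransfected values for 12 of the 14. A hypoxia and glycolysis list chosen in the same way had 21 members detected on both arrays, of which 17 were brighter on array 2 and 11 by over 2-fold, with a median log2 ratio of -1.06. P4ha2, which modifies collagen (168 and 709), Egln1, an oxygen sensor (80.3 and 374), Pdk1 (85.3 and 233) and Ldha (843 and 2289) were examples. Vegfa and Ndrg1 (410 and 275) were brighter on array 1. After quantile normalization the numbers brighter on array 1 were 20 of 21 for the ATF4 list, 0 of 14 for cholesterol synthesis and 3 of 21 for hypoxia.

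The start of Hmgcs1 is shown because SREBP, the factor that switches these genes on when sterols are low, is known to bind sterol response elements, searched here as TCACNNCAC on both strands. Its 250 bases (RefSeq, GRCm38.p6, chr13:119690101-119690350, plus strand) hold 1 match 137 bases before the start (capitals).

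Hmgcs1: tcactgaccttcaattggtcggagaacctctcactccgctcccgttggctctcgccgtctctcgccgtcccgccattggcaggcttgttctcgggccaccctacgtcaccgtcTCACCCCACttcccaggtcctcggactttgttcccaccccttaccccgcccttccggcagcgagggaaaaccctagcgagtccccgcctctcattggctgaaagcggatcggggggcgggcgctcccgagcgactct

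Those letters occur in 3.11% of all windows.

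**Figure D3:**
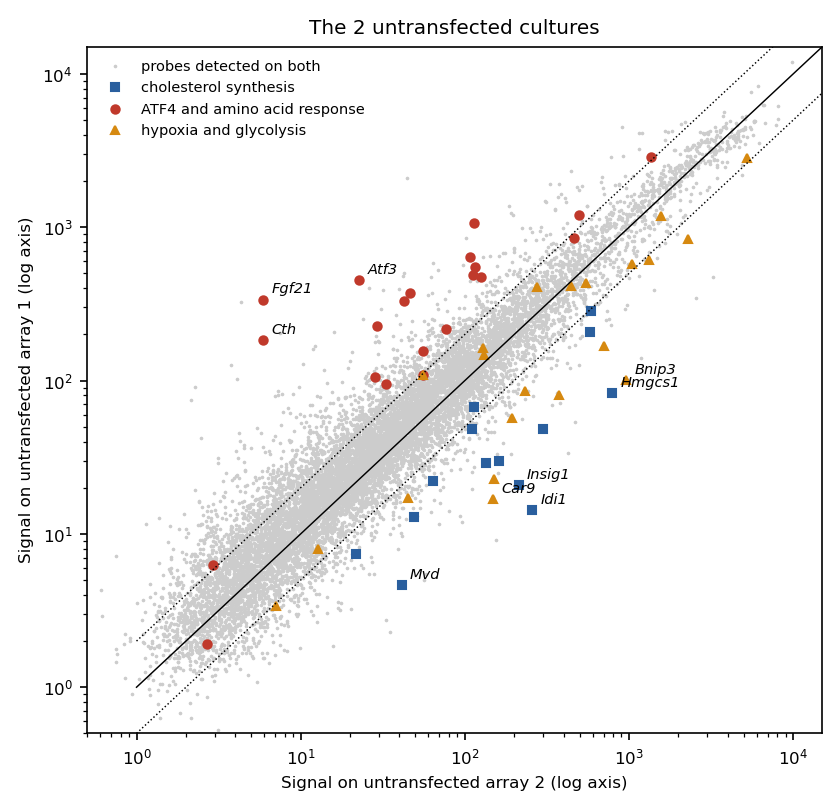
Signal on untransfected array 1 against array 2 (both log axes) for the 11694 probes detected on both (grey), with members of the ATF4 (red), cholesterol (blue) and hypoxia (orange) lists. The solid line marks equal signal and the dotted lines a 2-fold difference. Fgf21 (338 and 5.89) lies far above the lines and Idi1 (14.3 and 258) far below.

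Proliferation genes followed the side of array 2. Of 29 cell cycle genes detected on both arrays, 22 were brighter on array 2 and 9 by over 2-fold, and the median log2 ratio was -0.82. After quantile normalization 23 were brighter on array 2, 17 of them by over 2-fold. Aurora kinase B (Aurkb) gave 69.0 and 340, against 141 to 260 in transfected cells, so the 2 untransfected arrays lay on either side. Cenpa (140 and 340), Plk1 (77.9 and 182) and Cdc20 (192 and 396) were other mitotic genes with this order. D-type cyclins went the other way, with Ccnd1 as given above and Ccnd2 at 133 and 44.2.

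The next counts cover the 34 gene lists and leave out the ATF4, cholesterol and hypoxia lists, which were added later. Among members of those 34 lists, 16 were over 4-fold brighter on array 1: Fn1, Plin2, Csn3, Myc, Tslp, Hbegf, Fgf21, Csf2 (69.3 and 11.4), Ccl4 (46.9 and 9.17), Ccl7, Wnt7b (59.6 and 12.2), Pdgfc (59.2 and 14.6), Fgf1 (7.66 and 1.89), Loxl1 (58.1 and 9.37), Itgb5 (16.1 and 2.40) and Ifna4 (2.93 and 0.62). Their members over 4-fold brighter on array 2 were Aurkb and the chemokine receptor Cxcr3 (6.58 and 27.3). For these genes the mean of the untransfected cells rests on 2 arrays that lay far apart.

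**Figure D4:**
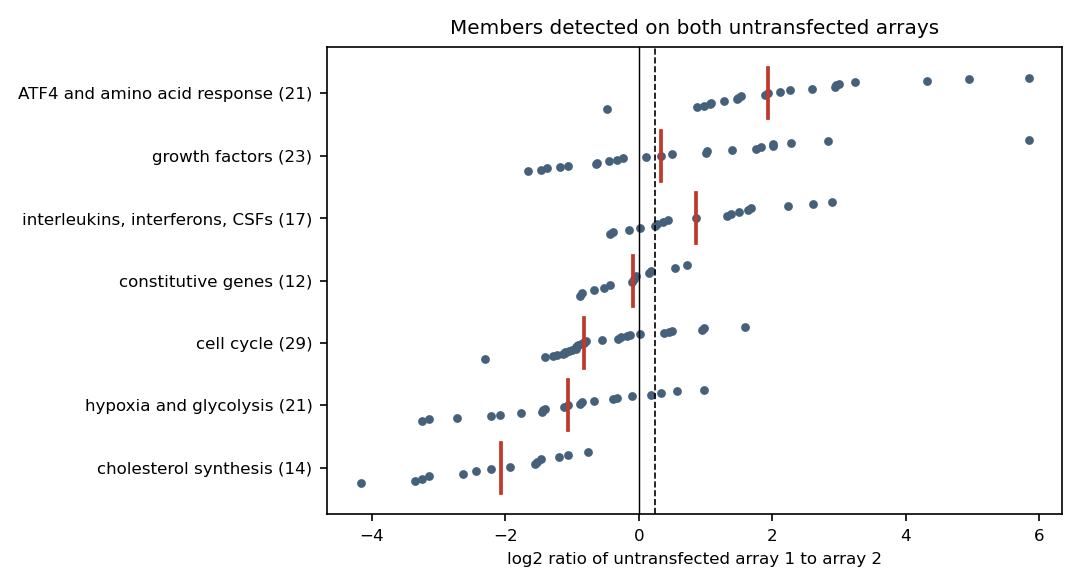
Log2 ratio of untransfected array 1 to array 2 for each member detected on both arrays (points, number in parentheses) of 7 lists, with the list median (red bar). The solid line marks equal signal and the dashed line the median of all probes, 0.24. Median ratios span 1.93 for the ATF4 list and -2.07 for the cholesterol list.

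Untransfected cells were then compared with all transfected cells, as the mean of the 3 siRNA groups, with limma over all 12 arrays. Of 16724 tested probes, 447 (2.67%) were called at a Benjamini-Hochberg adjusted p under 0.05. Of these, 130 (0.777% of tested probes) were higher and 317 (1.9%) lower in untransfected cells. Untransfected and transfected arrays did not overlap for 435 of the 447, so a lack of overlap adds little to a call. The median difference of all tested probes was 0.14 (log2), and list medians are given relative to it. The call count depended on single untransfected arrays: it was 166 (17 higher, 149 lower) without untransfected array 1 and 740 (444 higher, 296 lower) without array 2.

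Chemokines were lower in untransfected cells. Of 19 tested members, 10 fell and none rose, against 1.9% called lower over all probes, with a median relative difference of -2.12. Ccl5 gave 229 and 159 in untransfected cells, against 1037 to 4303 with a median of 3467 in transfected cells, a difference of -4.00 ± 0.41 (log2, SE, limma adjusted p = 0.000572). Ccl4 gave 46.9 and 9.17 in untransfected cells, against 92.2 to 766 with a median of 409 in transfected cells (-4.16 ± 0.67, limma adjusted p = 0.00942). Both groups of arrays were apart for each of these genes, as they were for most called probes.

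Ccl7 (-3.25 ± 0.50), Ccl8 (-3.27 ± 0.45), Cxcl9 (-2.37 ± 0.32), Cxcl11 (-2.39 ± 0.34), Ccl2 (-2.14 ± 0.42), Cxcl2 (-2.12 ± 0.45), Cxcl10 (-1.98 ± 0.27) and Cxcl1 (-1.52 ± 0.24) were the other chemokines called lower. Without untransfected array 1 the number called was 8, and without array 2 it was 7. Ccl5, Ccl7, Ccl8, Cxcl1, Cxcl9 and Cxcl10 were called both times, Ccl2 (limma adjusted p = 0.117) and Ccl4 (0.0637) lost the call without array 2, Cxcl11 (0.0595) lost it without array 1, and Cxcl2 lost it without either. The detected chemokines Ccl25, Cx3cl1, Ccl1 and Ccl9 were not called, for example Ccl25 at 20.7 and 14.6 against 13.8 to 23.7.

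The start of Cxcl10 is shown because it was among the called chemokines and the interferon response element, searched on both strands as GAAA, any 2 bases and GAAA again, is known to be bound by STAT and IRF factors. Its 250 bases (RefSeq, GRCm38.p6, chr5:92348890-92349139, minus strand) hold 1 match 213 bases before the start (capitals).

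Cxcl10: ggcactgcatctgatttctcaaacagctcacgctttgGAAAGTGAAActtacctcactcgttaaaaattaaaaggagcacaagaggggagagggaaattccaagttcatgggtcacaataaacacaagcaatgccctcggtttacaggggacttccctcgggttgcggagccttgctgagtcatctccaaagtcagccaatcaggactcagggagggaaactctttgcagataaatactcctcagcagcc

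The same letters occur in 2.98% of all windows.

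Interleukins, interferons and colony-stimulating factors had 26 tested members, 6 called lower and 1 called higher in untransfected cells. Over all probes 1.9% were called lower and 0.777% higher. Interferon beta (Ifnb1) gave 15.8 and 5.57 in untransfected cells, against 166 to 1165 with a median of 234 in transfected cells (-4.96 ± 0.66, limma adjusted p = 0.00336). Ifna4 gave 2.93 and 0.62, against 11.4 to 94.1 (-4.87 ± 0.63, limma adjusted p = 0.00278). Il6 gave 38.6 and 12.5, against 206 to 1044 with a median of 353 (-4.02 ± 0.46, limma adjusted p = 0.00121). Untransfected arrays were the lowest of the 12 for all 3 cytokines, a lack of overlap that most called probes shared. Csf2 (-3.58 ± 0.51), Il15 (-1.82 ± 0.23) and Csf3 (-1.19 ± 0.26) were also called lower, Csf3 losing the call without either untransfected array. Il11 was the member called higher (1.93 ± 0.41, limma adjusted p = 0.0329), with a difference of 1.24 that was not called without untransfected array 1 (limma adjusted p = 0.375).

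Interferon response genes had 22 tested members, 7 called lower and none higher, against 1.9% called lower over all probes. Their median relative difference was -1.12. The immunity-related GTPase Igtp gave 207 and 233 in untransfected cells, against 605 to 935 with a median of 731 in transfected cells (-1.77 ± 0.21, limma adjusted p = 0.00128). Gbp2 gave 38.3 and 60.9, against 140 to 274 (-2.14 ± 0.28, limma adjusted p = 0.00278). Irf1 (-1.33 ± 0.21), Mx2 (-1.76 ± 0.33), Ifit1 (-1.58 ± 0.33) and Oas2 (-1.38 ± 0.32) and Cxcl10 were the others. Igtp, Gbp2 and Cxcl10 kept the call without each untransfected array in turn, and the list then had 3 calls without array 1 and 7 without array 2. It had 12 after quantile normalization, 10 after scaling over detected probes, and 5 under median scaling. Ifit2 was not detected in untransfected cells (0.46 and 0.39) and was detected on 8 transfected arrays. The toll-like receptor Tlr2 gave 23.6 and 13.9, against 103 to 203 (-2.96 ± 0.32, limma adjusted p = 0.000735).

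Genes outside the immune lists also stood among the 10 largest falls. These were taken among called genes whose untransfected and transfected arrays did not overlap, so the lack of overlap was set by the choice. For a gene detected in 1 of the 2 kinds of cells alone, "at least" marks a fold against a floor for each array of the undetected side. That floor is the gene's own signal or the array's lowest detected signal, whichever is greater. It lies within the noise, because the lowest detected signals were 0.41 and 0.37 on the untransfected arrays. The 95th percentiles of undetected signals there were 2.42 and 2.54. Such a fold is thus an estimate and no strict lower limit, and it leaves out the spread between arrays. Such a gene passed the filter on dim probes only through the cells in which it was detected, so its call is no independent support for the difference. Zfp750, a transcription factor of keratinocyte differentiation, was not detected in untransfected cells (0.30 and 0.43), against 6.42 to 53.6 in transfected cells, and was at least 40.3-fold lower (limma adjusted p = 4.92e-05). The cell cycle regulator Rgcc was not detected (0.52 and 0.37), against 2.70 to 103, and was at least 45.6-fold lower (limma adjusted p = 0.00107). Sprr1b, a cornified envelope protein, gave 1.54 and 11.0, against 61.1 to 269 (-4.88 ± 0.71), without a call when untransfected array 1 was left out (limma adjusted p = 0.0786). The glucose transporter Slc2a6 (3.74 and 6.39, against 52.7 to 313) and the serpin Serpinb9b (3.32 and 3.11, against 34.3 to 87.6) belonged to the same set. Prl8a9, a placental prolactin family gene, gave 0.61 and 1.86, against 3.11 to 128, and lost its call without untransfected array 1 (limma adjusted p = 0.162).

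Among other list members called lower, Cdkn1a gave 260 and 263 in untransfected cells, against 462 to 975 in transfected cells (-1.30 ± 0.28, limma adjusted p = 0.0334). The death receptor Fas (3.72 and 4.42, against 8.13 to 65.1), the collagenase Mmp13 (11.3 and 5.32, against 26.1 to 104) and the growth factor Fgf7 (39.4 and 11.1, against 60.4 to 276) fell as well. Krt7 (at least 4.89-fold), the lysosomal protease Ctss (at least 3.77-fold) and Col9a3 (at least 4.50-fold) were not detected in untransfected cells. Elf3, Tgfb2 and Col4a4 completed the set. Cdkn1a, Fas, Mmp13, Krt7, Col9a3, Tgfb2 and Col4a4 lost the call without either untransfected array, Ctss and Elf3 without array 1, and Fgf7 without array 2.

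Genes higher in untransfected cells were fewer. Tnc, given above, was higher by 2.46 ± 0.43 (limma adjusted p = 0.0135), and by 1.71 without untransfected array 1, where it was not called (limma adjusted p = 0.179). Krt18 was higher by 2.03 ± 0.33 (limma adjusted p = 0.00952), and by 1.69 without array 1 (limma adjusted p = 0.132). Sox2 gave 41.6 and 52.3 in untransfected cells, against 9.72 to 24.8 with a median of 14.8 in transfected cells (1.63 ± 0.24, limma adjusted p = 0.0056), and it kept the call without each untransfected array in turn. The endothelial adhesion gene Sele gave 4.29 and 4.80 and was not detected in transfected cells (0.72 to 1.49), at least 4.20-fold higher. Sele passed the filter through the untransfected arrays alone and could not be tested with either left out.

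The 10 largest rises were taken among called genes without overlap between untransfected and transfected arrays, and Tnc was among them. That choice left out the Notch ligand Jag1, called higher by 3.51 ± 0.78 with overlapping arrays (61.4 and 8.60, against 0.72 to 12.9, limma adjusted p = 0.0399). Scd1, the desaturase that makes oleate, gave 15.8 and 14.0 in untransfected cells, against 0.69 to 4.77 in transfected cells (2.93 ± 0.54, limma adjusted p = 0.0167). The transcription cofactor Lbh gave 219 and 116, against 12.4 to 35.2 (2.73 ± 0.37, limma adjusted p = 0.00336). The Notch ligand Dll4 gave 26.8 and 21.2, against 1.89 to 10.9 (2.73 ± 0.50, limma adjusted p = 0.0165). The ADP receptor P2ry12 gave 56.8 and 22.7, against 1.35 to 19.2 (2.58 ± 0.42, limma adjusted p = 0.00987). All 4 lost the call without untransfected array 1, with limma adjusted p of 0.148 for Scd1, 0.0593 for Lbh, 0.158 for Dll4 and 0.146 for P2ry12, and Scd1 also without array 2 (0.0553). Rundc3a (8.95 and 9.09, against 0.77 to 3.92) lost it without either. Olfr1101, Nxnl2, Sdr16c5 and Kdm4d were detected in untransfected cells alone, at 1.96 to 12.3, and were at least 4.56 to 6.82-fold higher. They too passed the filter through those arrays alone and could not be tested with either left out.

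Over all tested probes 2.67% were called, 0.777% higher and 1.9% lower. Of 10 tested luminal members, 1 was called higher (Krt18) and 2 lower (Krt7, Elf3), calls lost without untransfected array 1 as given above. The basal (6), mesenchymal (11), fibroblast (11), milk (7) and integrin (11) lists had none called in either direction. Neither did receptor tyrosine kinases (21), TGF-beta, BMP and Wnt receptors (21), nuclear receptors (17), cell cycle genes (30) or constitutive genes (12). At the share over all probes, lists of these sizes would hold few calls or none. These counts depended on the scaling. After quantile normalization, 2 mesenchymal genes and 1 milk gene were called higher, and 1 nuclear receptor and 1 cell cycle gene lower. Scaling over probes detected on all arrays gave the same counts for these lists. Over all probes those settings called 5.05% and 5.23%. At an unadjusted limma p under 0.05 the counts were 5 for mesenchymal genes, 4 for fibroblast genes, 1 each for basal and milk genes, 2 for integrins, 2 for receptor tyrosine kinases, 5 for TGF-beta, BMP and Wnt receptors, 2 for nuclear receptors, 4 for cell cycle genes and 1 for constitutive genes, against 2977 of all 16724 probes. The median relative difference was 0.43 for mesenchymal genes, 0.05 for cell cycle genes and 0.06 for constitutive genes.

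**Figure D5:**
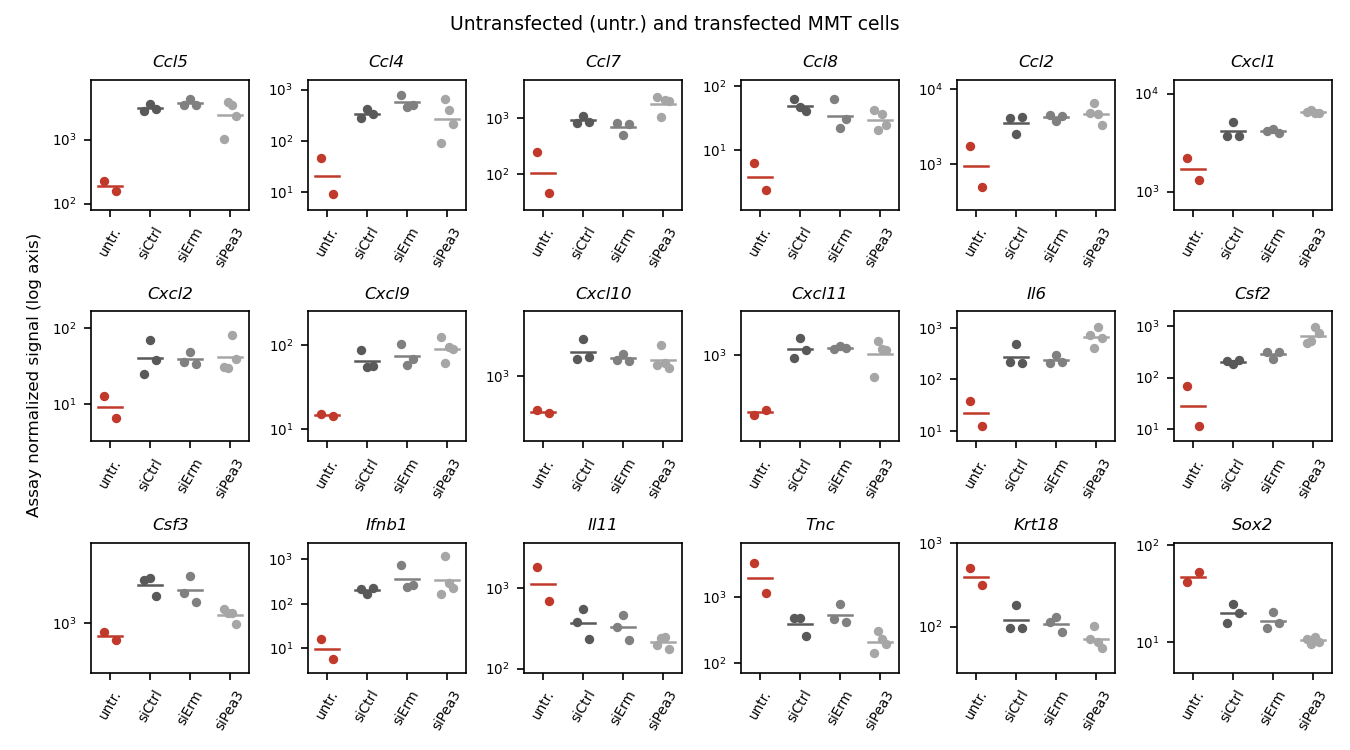
Signal (log axis) of 18 genes on each untransfected (untr., red) and each siCtrl, siErm and siPea3 array (grey), with group geometric means as bars. The 14 genes from Ccl5 to Ifnb1 are lower on both untransfected arrays than on every transfected array, for example Ccl5 at 229 and 159 against 1037 or more, and Il11, Tnc, Krt18 and Sox2 are higher on both.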

How the data were processed

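RNA of 12 arrays was amplified and labelled with digoxigenin, per the labels' protocols. The authors deposited for each probe an intensity (assay normalized signal, linear), a coefficient of variation, which is a ratio of noise to signal, and a status score, per the file headers. All 392662 filled values of the deposited series table equalled the array values, and its 3482 blanks were failed measurements. The sources used here do not name the software, the background correction or the scaling applied. The deposited signals were put on the log2 scale with no further scaling. Between 145 and 438 measurements of an array had failed and were dropped.

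Symbols came from the array's annotation (14411 probes with 1 symbol, 247 with several, 18354 with none) and were looked up in a RefSeq table, and 0 were renamed. Where a gene had several probes, the one with the highest mean log2 signal over 12 arrays stood for it. Tested probes were detected on at least 2 arrays and had a value in each group. Groups were fitted in R 4.3.3 by limma 3.58.1 (functions lmFit and eBayes, 8 residual and 3.06 prior degrees of freedom, no covariates), with the contrast of untransfected cells minus the mean of siCtrl, siErm and siPea3. P-values were adjusted by Benjamini-Hochberg over 16724 probes. The fit was tested on simulated data. Errors of log2 differences are standard errors.

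The members, the 34 gene lists (783 genes, 636 with a probe) and the naming rule were chosen with earlier results of these data known. The rule names the 30 brightest genes, up to 6 bright and up to 6 undetected members of each list, and called list members. It also names the 10 largest ratios between untransfected arrays each way. Called differences were ranked among genes without overlap between untransfected and transfected arrays, and the 10 largest each way were named. Dim members, further members of the ATF4, cholesterol and hypoxia lists and other undetected list members were named after their values were seen. Promoter sequences and their 4 motifs were chosen with the values known. Alternatives were other scalings, detection limits and filters, a replicate block, array weights and leaving out each array. Precision is limited by how few arrays there were.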

Additional observations from a re-analysis of the deposited data

How the results depend on the processing

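The number of probes called between untransfected and transfected cells was 447, and it moved by over 1.5 times under 8 alternatives. It was 845 after quantile normalization, 875 after scaling over probes detected on all arrays, 243 with no filter on dim probes, 677 with an intensity trend and 203 with array weights. The median difference of all probes was 0.14 and became 0.01 after scaling over detected probes. Leaving out 1 array gave 166 to 740 calls, the lowest without untransfected array 1 and the highest without untransfected array 2. Those alternatives kept between 115 and 434 of the 447 probes. With the replicate number as a block it was 288 (75 higher, 213 lower), of which 213 were among the 447. That block ended 15 of the 53 calls followed by gene: Olfr1101, Dll4, Tnc, Rundc3a, Cdkn1a, Col4a4, Csf3, Cxcl2, Elf3, Fgf7, Ifit1, Il11, Mmp13, Mx2 and Oas2. Deviations from the group means of same-numbered arrays correlated at -0.03 to 0.13 in pairs with an untransfected array, at 0.225 to 0.312 between siCtrl and siErm, at 0.115 to 0.321 between siCtrl and siPea3 and at -0.04 to 0.08 between siErm and siPea3. Pairs of different number ran from -0.305 to 0.319 over all groups, the highest between siCtrl array 3 and siPea3 array 4. The numbers thus tied siCtrl arrays to siErm arrays, and less clearly to siPea3 arrays. With untransfected arrays, pairs of different number ran from -0.127 to 0.108. Those overlapped with the same-numbered ones, and untransfected arrays were not taken as paired. None of the 53 changed direction under the alternatives that could be run, which were 21 for 47 genes, 20 for Rundc3a and 18 for the 5 genes detected in untransfected cells alone. Without untransfected array 1, 26 of 48 testable genes lost the call, and without array 2, 16 of 48, and 19 kept it both times. The cause was not tested. With 1 untransfected array left, that array was assumed to vary like the other groups.

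Detection on both arrays fell to 10492 probes with a noise limit of 0.2 of the signal. Under that limit 5 of the 34 list counts moved by over 1.5 times, and under 0.5 it was 4, all in lists with few detected members. The exact p for the detected share was 0.333 under a noise limit of 0.2, and without either untransfected array the smallest possible p was 0.0909, so those could not separate the groups. Medians of chemokines (-2.16 to -1.48) and interferon response genes (-1.51 to -0.84) relative to all probes stayed below 0 after quantile normalization and without each untransfected array, alternatives added after the data were seen. A scaling that shifts each array alike could not move them by its construction. The median of mesenchymal genes stayed above 0 there (0.42 or more), while that of cell cycle genes was 0.36 without untransfected array 1 and -0.40 without array 2.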
